A study of Mus musculus with 4 samples.

Results

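Hypoxia and glycolysis genes were followed through the leukocytes of mouse fibrosarcomas with and without Raldh1 and Raldh3, the enzymes that make retinoic acid from retinaldehyde. The 33 genes were a named list taken from the 31053 features of the count tables. They were 13 glycolysis enzymes, 2 carriers of glucose and lactate, 2 switches of glycolytic flux, 3 genes of oxygen sensing and 13 hypoxia targets. Live leukocytes positive for CD45 had been sorted from untreated tumours on day 11 after implantation, after digestion with collagenase B and DNAse I, with dead cells excluded by 7AAD. One group is labelled Cas9 control and the other Raldh1/3 DKO (double knockout), and the labels name no guide and no other allele for either. Each group had 2 libraries of 10x Genomics 3′ v3 chemistry, each from a pool of 2 tumours, so that 4 tumours stood behind each group. The labels attach the knockout to the tumours and say neither in which cells it was made nor whether 1 clone was used. Single tumours could not be told apart within a pool, so the p-values of DKO against control rest on how far pools of a group differed. Comparisons of classes had the library as a block, so their p-values rest on how far the difference between classes varied between libraries. The same holds, within each group, for tests of the difference of the DKO change between classes. An exact two-sided permutation test of 2 libraries against 2 cannot go below 0.3333.

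Cells short of oxygen stop degrading the transcription factor HIF-1α, because the prolyl hydroxylases that mark it for destruction need oxygen to work. HIF then binds short motifs in promoters and enhancers and raises genes for glycolysis, lactate export, blood vessel growth and mitochondrial clearance. Glycolysis enzymes are also expressed in well-oxygenated cells and are raised by activation of macrophages, neutrophils and T cells, whereas targets such as Egln3, Bnip3 and Adm are used more as reporters of low oxygen. For this reason the enzymes were described apart from the hypoxia targets.

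The promoters of the members hold the core of the HIF motif more often than promoters do in general. The letters searched were ACGTG and GCGTG with their reverse complements CACGT and CACGC in the 250 bases before each RefSeq start on GRCm38.p6. A palindromic CACGTG counts on both strands as 2 overlapping matches. Of the 33 members 30 had a promoter entry, and 27 of these (90%) held a match, against 11226 of 27025 genes (41.5%) with an entry. These shares were not adjusted for base composition. The matches were found for 11 of 13 glycolysis enzymes and for 9 of the 10 hypoxia targets with an entry, so the motif did not separate the groups. No match was found for Gpi1, Tpi1 and Mif, and Bnip3l, Ero1l and Ndrg1 had no entry. A match of 5 letters is a description of the sequence and not a measured binding site. The sequences below belong to the members on which the comparisons turn: Bnip3 (chr7:138909507-138909756, minus strand, 5 matches), Egln3 (chr12:54203875-54204124, minus strand, 1 match), Ddit4 (chr10:59951771-59952020, minus strand, 2 matches) and Fam162a (chr16:36071562-36071811, minus strand, 6 matches). Of the enzymes, Pgk1 (chrX:106186850-106187099, plus strand, 2 matches) and Tpi1 (chr6:124814159-124814408, minus strand, 0 matches) are shown beside them as enzymes with and without the motif. Each runs 5′ to 3′ toward the start, with the matches in capitals.
Bnip3: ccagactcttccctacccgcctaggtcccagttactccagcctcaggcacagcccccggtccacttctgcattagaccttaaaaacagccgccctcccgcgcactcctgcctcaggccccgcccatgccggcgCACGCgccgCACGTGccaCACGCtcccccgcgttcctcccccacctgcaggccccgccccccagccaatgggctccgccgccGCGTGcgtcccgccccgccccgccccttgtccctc
Egln3: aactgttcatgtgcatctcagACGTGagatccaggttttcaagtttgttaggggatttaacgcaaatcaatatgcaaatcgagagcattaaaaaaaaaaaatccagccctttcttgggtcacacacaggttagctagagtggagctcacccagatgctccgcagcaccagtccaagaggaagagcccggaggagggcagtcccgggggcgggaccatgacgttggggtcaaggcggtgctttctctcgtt
Ddit4: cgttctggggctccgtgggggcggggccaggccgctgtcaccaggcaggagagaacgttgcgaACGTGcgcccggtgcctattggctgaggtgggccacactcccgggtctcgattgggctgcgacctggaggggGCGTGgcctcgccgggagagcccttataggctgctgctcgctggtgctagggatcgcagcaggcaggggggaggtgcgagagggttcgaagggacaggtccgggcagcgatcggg
Fam162a: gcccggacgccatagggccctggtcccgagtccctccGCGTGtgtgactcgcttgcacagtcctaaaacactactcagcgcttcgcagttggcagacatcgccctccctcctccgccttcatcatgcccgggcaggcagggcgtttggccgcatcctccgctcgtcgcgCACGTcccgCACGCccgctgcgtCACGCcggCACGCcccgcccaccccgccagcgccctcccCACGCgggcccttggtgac
Pgk1: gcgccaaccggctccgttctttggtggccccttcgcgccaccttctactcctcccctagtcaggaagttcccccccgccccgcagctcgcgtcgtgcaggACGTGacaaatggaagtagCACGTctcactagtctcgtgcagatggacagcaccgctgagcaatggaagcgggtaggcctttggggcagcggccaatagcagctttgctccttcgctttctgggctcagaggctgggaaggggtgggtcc
Tpi1: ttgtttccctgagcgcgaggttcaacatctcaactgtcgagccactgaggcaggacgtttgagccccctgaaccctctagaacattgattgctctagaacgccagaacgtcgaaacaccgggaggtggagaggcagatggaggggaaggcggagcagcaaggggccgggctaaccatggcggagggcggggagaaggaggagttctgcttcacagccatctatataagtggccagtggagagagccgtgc

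The 4 libraries held 5429 to 9206 barcodes and 57458026 to 80032966 unique molecular identifiers (UMIs, 1 per captured transcript), with a median of 6544 to 7581 UMIs per barcode. After filters on quality and doublets 25880 cells were left. Libraries shared 20 to 38 barcodes per pair, at most 0.626% of the smaller one. Over all kept cells Aldh1a1, which encodes Raldh1, had 1, 0, 0 and 1 UMIs in control 1, control 2, DKO 1 and DKO 2. Aldh1a3, which encodes Raldh3, had 9, 3, 0 and 0 UMIs among the 169 tumour or fibroblast-like cells that came through the sort, and 28, 9, 10 and 24 over all kept cells. The counts of Aldh1a1 lie under the floor of 3 UMIs and check nothing, and leukocytes need not carry the knockout.

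Classes were built from clusters made without the 33 members and 57 further genes of the same pathways among the variable genes, and were named "like" a cell type from their markers. Monocyte/macrophage-like cells were the largest class with 14584 cells, followed by 4074 T-like, 1516 NK-like, 1364 dendritic-like and 785 neutrophil-like cells. Neutrophil-like cells were led by S100a9 and S100a8 and had a median of 1703 UMIs, against 9902.5 in monocyte/macrophage-like cells, so their values rest on fewer counts. Cluster 5, with 1795 cells, was left unnamed: its leading genes were Il13, Lgals7, Il4, Penk, Cd4 and Il5. Its best match was T-like, with a UMI of Cd3e in 81.9% of cells. It stayed unnamed because more markers of another class were among its leading genes. The T-like class therefore does not hold these cells. Ptprc, which encodes CD45, had a UMI in 94.0% of monocyte/macrophage-like and 78.3% of neutrophil-like cells. Levels below are in CPM, the UMIs of the summed cells of a class in a library scaled to a total of 1000000. As the 3′ chemistry gives about 1 UMI per transcript whatever its length, CPM may be set side by side between genes. Abundant enzymes such as Gapdh, Aldoa and Eno1 have near-identical copies in the genome, between which reads may have been split.

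**Figure D1:**
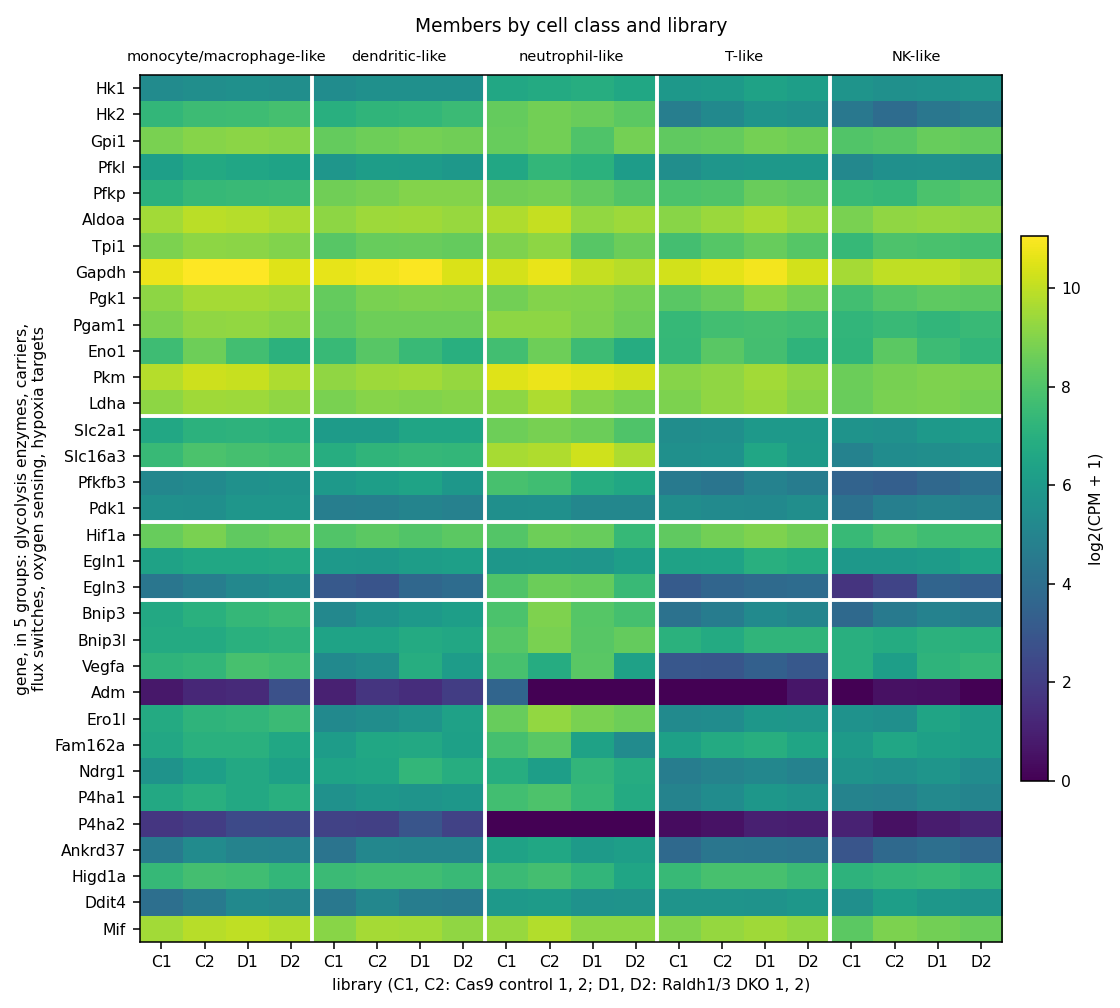
Level of each of the 33 genes as log2(CPM + 1) (colour) in 5 classes, with 1 column per library and the genes ordered by group along the vertical axis. Egln3, Slc16a3 and Ero1l stand out in the 4 neutrophil-like columns, and Gapdh, Pkm and Aldoa are high in all 5 classes.

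Glycolysis enzymes were abundant in each of the 5 classes compared and overlapped between the 2 highest of these. Their summed level was 7395 ± 957 CPM (SD, n = 4 libraries) in monocyte/macrophage-like cells and 7082 ± 1302 in neutrophil-like cells, which overlapped. Outside these classes it was 8376 ± 1590 in the 169 tumour or fibroblast-like cells and 7296 ± 755 in cluster 5. It was 6029 ± 586 in dendritic-like, 5298 ± 857 in T-like and 3871 ± 458 in NK-like cells, and only the NK-like libraries lay below all libraries of the 4 others. Of the 13 enzymes, 8 were highest in monocyte/macrophage-like cells: Gpi1 at 521 CPM and Pgk1 at 701 were there above every library of the other 4 classes, while Aldoa, Tpi1, Gapdh, Pgam1, Eno1 and Ldha overlapped with the next class. Hexokinases, which trap glucose in the cell, were highest in neutrophil-like cells. Hk2 averaged 360 CPM there against 193 in monocyte/macrophage-like and 20.1 in NK-like cells, and Hk1 averaged 104 against 69.1 in the next class, T-like. Pkm, which makes pyruvate in the last step, also peaked in neutrophil-like cells at 1492 CPM against 1015 in monocyte/macrophage-like cells. Pfkp, the platelet-type phosphofructokinase, was highest in dendritic-like cells at 470 CPM, where it overlapped with the neutrophil-like libraries.

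Both carriers and the switch Pfkfb3 stood further above their next class than any enzyme, of which Hk2 had the largest ratio at 1.87. Slc16a3 (MCT4, the lactate exporter) averaged 919 CPM in neutrophil-like cells and 210 in monocyte/macrophage-like cells, 4.38 times as much. Slc2a1 (GLUT1, the glucose importer) averaged 368 and 126, and Pfkfb3, which makes the activator of phosphofructokinase, averaged 161 against 68.6 in the next class, dendritic-like. For each of these 3 genes the lowest neutrophil-like library was above the highest library of any other class. Pdk1, a pyruvate dehydrogenase kinase and the other switch, was instead highest in monocyte/macrophage-like cells at 50.02 CPM, 1.25 times the next class. In all, 11 of 33 members were above every library of the other 4 classes in neutrophil-like cells and 3 in monocyte/macrophage-like cells, beside 8.62% and 8.08% of 12074 genes.

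Egln3 separated the classes most. This prolyl hydroxylase (chr12:54178981-54203860 on GRCm38, minus strand) is itself induced by HIF. It stood at 260, 385, 349 and 181 CPM in the neutrophil-like cells of control 1, control 2, DKO 1 and DKO 2. In monocyte/macrophage-like cells it stood at 19.5, 25.4, 35.0 and 41.6, and NK-like cells were lowest with a mean of 6.48. The neutrophil-like mean of 294 was 9.67 times the next highest mean. The other genes of oxygen sensing did not follow it: Hif1a, which encodes HIF-1α, averaged 407 CPM in T-like and 376 in monocyte/macrophage-like cells. Egln1, the main hydroxylase at normal oxygen, was lowest in neutrophil-like cells at 61.0 CPM. Outside the classes compared, cluster 5 stood higher, where Hif1a, Egln1 and Egln3 together summed to 1361 ± 149 CPM (SD). Their sum was 654 CPM in neutrophil-like, 519 in T-like and 500 in monocyte/macrophage-like cells. The level of Hif1a alone in cluster 5 is not given here.

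Hypoxia targets summed to 2722 ± 601 CPM (SD, n = 4) in neutrophil-like and 2047 ± 273 in monocyte/macrophage-like cells, and the libraries of the classes overlapped. Of the 13 targets 9 were highest in neutrophil-like cells by their mean, counting Adm on 3 UMIs. Bnip3, Bnip3l, Ero1l and Ankrd37 were there above every library of the other classes. Ndrg1, at 114 against 113.8 CPM in dendritic-like cells, and Ddit4, at 56.7 against 56.3 in NK-like cells, were near ties. Each of these 2 was highest in neutrophil-like cells in 1 of 4 libraries. The share of all genes highest in this class is not given here. Ero1l, an oxidase of protein folding in the endoplasmic reticulum, averaged 455 CPM against 148 in monocyte/macrophage-like cells. Bnip3 and Bnip3l, receptors for the removal of mitochondria, averaged 306 and 343 CPM, 2.11 and 2.55 times the next class. Vegfa, the growth factor of blood vessels, averaged 184 CPM in monocyte/macrophage-like and 182 in neutrophil-like cells and only 7.60 in T-like cells. Adm, which encodes the vasodilator adrenomedullin, averaged 2.27 CPM in monocyte/macrophage-like cells, and neutrophil-like cells held 3, 0, 0 and 0 UMIs of it in the 4 libraries. P4ha2, a collagen prolyl hydroxylase subunit, had 0 UMIs in each neutrophil-like library.

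Neutrophil-like cells were tested against each other class with the library as a block. Against monocyte/macrophage-like cells 16 of 33 members were higher and 4 lower (edgeR adjusted p below 0.05), beside 20.3% of all tested genes higher and 38.2% lower. The 4 lower members include P4ha2, with 0 UMIs in neutrophil-like cells. The median log2 difference of all genes in this comparison was -0.79, a value that includes genes tested only through their level in the deeper class. The enzymes had a median log2 difference of 0.10 and the hypoxia targets of 0.75. Over the 3507 genes that passed the filter on low counts within neutrophil-like cells the median was 0.47, above the 0.10 of the 13 enzymes and below the 0.93 of the 11 targets that passed it. Egln3 was higher by 3.55 (SE 0.18) on the log2 scale, Slc16a3 by 2.30 (0.14), Pfkfb3 by 2.18 (0.19), Ero1l by 1.84 (0.15) and Slc2a1 by 1.75 (0.15). Lower were Pgk1 at -0.40, Gapdh at -0.40 and Gpi1 at -0.34, and P4ha2, for which no fold is given. For Ldha the difference was 0.04 (SE 0.14) and for Aldoa 0.10 (0.13), neither past the threshold. This split depends on the scaling: with DESeq2 size factors the median of all genes was 0.78, above that of the enzymes (0.20) and just below that of the targets (0.87). Relative to that median, 4 enzymes lay above and 9 below, and 7 targets above and 6 below. With library totals and no TMM the medians were -0.09 for the enzymes, 0.56 for the targets and -1.01 for all genes.

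Against each of the other 3 classes most members were higher in neutrophil-like cells. This held for 21 of 31 members against dendritic-like cells (24.1% of all genes), for 23 of 31 against T-like cells (24.3%) and for 29 of 31 against NK-like cells (28.3%), by edgeR at an adjusted p below 0.05. In these comparisons 0 members were lower at any of the 3, beside 41.7%, 44.7% and 39.3% of all genes. The median log2 difference of all genes was -0.55, -0.70 and -0.39. Here too the shares and medians of all genes include genes tested only through their level in the deeper class. Medians over the genes that passed the filter within neutrophil-like cells, or with DESeq2 size factors, are not given here for these 3 comparisons. Vegfa differed most by the class it was set against, at 4.803 (SE 0.23) over T-like and 0.91 (0.20) over NK-like cells. Hk2 was higher by 3.49 (0.18) over T-like and 4.55 (0.22) over NK-like cells. Against dendritic-like cells Pfkp at -0.16, Gapdh at -0.26 and Higd1a, a respiratory chain assembly factor, at -0.02 did not pass the test. Monocyte/macrophage markers summed to 1554 to 1952 CPM in neutrophil-like libraries, with 12 of 12 detected, against 16420 to 18151 in monocyte/macrophage-like ones. Their part in these differences was not tested. The classes come from clustering of the same cells, with the members left out of the variable genes.

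Genes of the same pathways outside the list included further sugar carriers and genes of lipid storage. Against monocyte/macrophage-like cells 16 of 47 tested pathway genes were higher and 13 lower in neutrophil-like cells, beside 20.3% and 38.2% of all genes. Slc2a3 (GLUT3, a high-affinity glucose importer) was higher by 7.64 on the log2 scale, Slc2a6 by 3.45, Hilpda (a hypoxia-induced inhibitor of lipolysis) by 2.49, Ier3 by 2.32, Kdm3a by 2.21 and Plin2 (a lipid droplet coat protein) by 1.64. Lower were Slc6a8 at -4.12, Ldhb at -3.01, Slc16a1 at -2.92, Rora at -2.87, Aldoc at -2.63, Plod1 at -1.94 and Pdk3 at -1.10. Enzymes of the pentose phosphate pathway went both ways: Pgls at -2.28, Tkt at -1.60 and Rpe at -0.98 were lower, and Taldo1 at 1.31 and Pgd at 0.62 were higher. Of the 13 lower genes Car9, Pdk2 and Pfkm had 0 UMIs in each neutrophil-like library.

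Over all sorted cells 0 of 33 members were called between DKO and control, beside 0% of all genes. In monocyte/macrophage-like cells the hypoxia targets lay higher in DKO tumours and the enzymes did not, but no member passed the test. Of 33 members 0 were called by edgeR, beside 0.00771% of all 12967 genes, and 7 had an unadjusted p below 0.05, all of them higher in DKO, against 4.23% of all genes. The targets had a median log2 change of 0.39, with 9 of 13 positive, and the enzymes of -0.00, with 6 of 13 positive, beside 51% of all genes with a positive change and medians of -0.02 to 0.02 for all genes of the classes tested. In 8 of 13 targets and 3 of 13 enzymes both DKO libraries lay above both controls, as they did for 21.3% of all genes.

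Bnip3 stood at 101, 129, 165 and 187 CPM in the monocyte/macrophage-like cells of control 1, control 2, DKO 1 and DKO 2, a log2 change of 0.57 (SE 0.17, edgeR adjusted p = 0.428). Egln3, at 19.5, 25.4, 35.0 and 41.6 CPM, changed by 0.73 (0.17, adjusted p = 0.376), and Ddit4, an inhibitor of mTOR signalling, at 15.6, 22.7, 37.6 and 32.6 CPM, by 0.83 (0.22, adjusted p = 0.400). Vegfa stood at 147, 159, 228 and 200 CPM, a change of 0.45 (0.15, adjusted p = 0.456). In each of these 4 genes both DKO libraries were above both controls. Pfkfb3, at 33.3, 38.6, 46.9 and 50.3 CPM, and Bnip3l, at 108, 107, 127 and 143, showed the same order with changes of 0.40 and 0.29. Adm was at 0.658, 1.32, 1.48 and 5.61 CPM, so most of its change of 1.76 (SE 0.72) came from DKO 2. Fam162a, a mitochondrial protein, P4ha1, Ankrd37 and Higd1a had changes of -0.06, -0.05, -0.13 and -0.15.

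**Figure D2:**
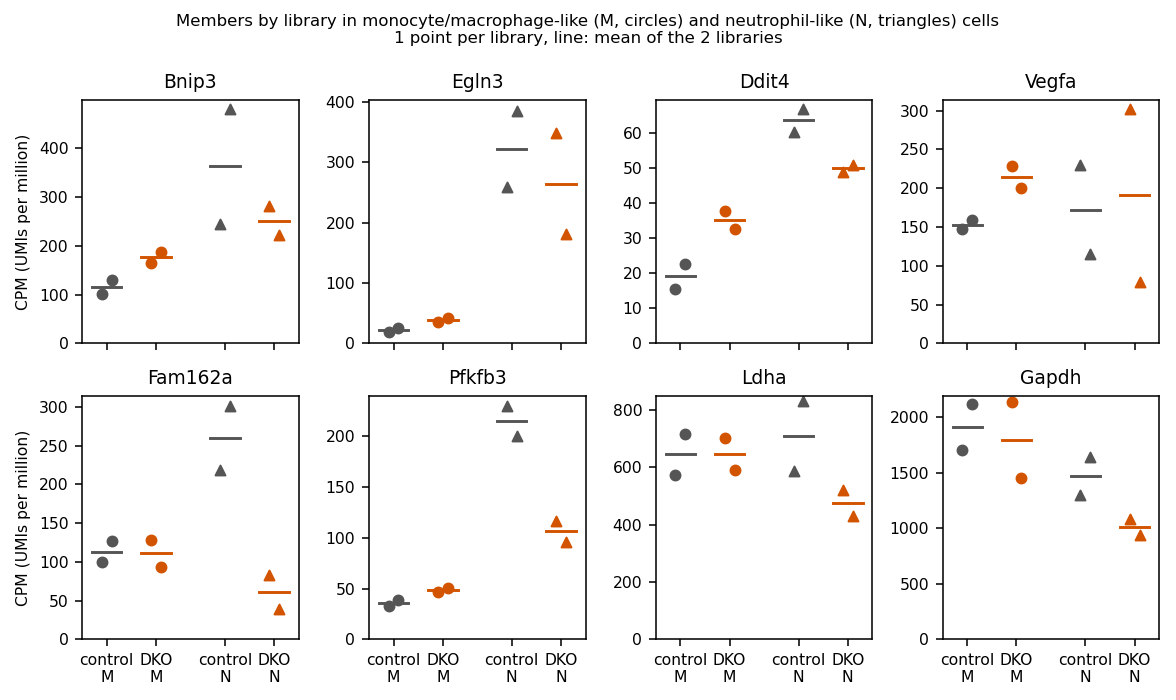
Level in CPM of 8 genes (Bnip3, Egln3, Ddit4, Vegfa, Fam162a, Pfkfb3, Ldha and Gapdh) in each library, with circles for monocyte/macrophage-like and triangles for neutrophil-like cells and a line at the mean of the 2 libraries of a group. Bnip3 and Egln3 are higher in both DKO libraries than in both controls in monocyte/macrophage-like but not in neutrophil-like cells, and Fam162a falls from 219 and 301 to 82.6 and 39.6 CPM in neutrophil-like cells.

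The enzymes were split by library rather than by group. Their sum was 6514, 8367, 8064 and 6635 CPM in monocyte/macrophage-like cells, with control 2 and DKO 1 high and control 1 and DKO 2 low. Control 2 was above control 1 and DKO 1 above DKO 2 in the dendritic-like, T-like, NK-like and neutrophil-like sums too. Gapdh followed this order at 1704, 2120, 2136 and 1454 CPM (log2 change -0.13, SE 0.25), as did Ldha, the lactate dehydrogenase subunit, at 573, 718, 704 and 592 (-0.03, SE 0.20). Eno1 was the enzyme with the largest change, at 194, 395, 211 and 136 CPM (-0.81, SE 0.43, edgeR adjusted p = 0.645), and control 2 stood apart from the other 3 libraries. Hif1a was at 363, 451, 331 and 357 CPM, lower in both DKO libraries (-0.28, SE 0.17), and Slc16a3 had a change of 0.00. Without control 1, Eno1 passed the test at -1.26 (adjusted p = 0.0361) and the targets' median became 0.18. Without control 2, Ddit4 passed it at 1.18 (adjusted p = 0.0296) and the enzymes' median became 0.21.

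Depth and other markers differed between the groups in this class. Its cells had a median of 9740 and 8955.5 UMIs in the control libraries and 11439 and 12950.5 in the DKO libraries, and the order of Bnip3, Egln3 and Vegfa was also seen after thinning to equal depth, as given at the end. The 12 macrophage markers summed to 17864 to 18151 CPM in control and 16420 to 17227 in DKO, and the 10 dendritic markers to 12.9 to 22.98 and 28.4 to 46.6. The 12 T cell markers summed to 19.5 to 21.04 CPM in control and 24.9 to 27.4 in DKO, with 6 of 12 higher in both DKO libraries. The 9 NK markers summed to 1730 to 2059 CPM in control and 1317 to 1682 in DKO. They include Tyrobp, whose part was not taken out, so this sum is not read as NK cell RNA. The 7 mast cell or basophil markers summed to at most 1.36 CPM in control and 4.45 in DKO. All markers of these lists had a UMI, and their part in the changes was not tested. Among 48 tested pathway genes outside the list 0 were called and 8 had an unadjusted p below 0.05, all higher in DKO. Aldoc, an aldolase isoform, averaged 31.1 CPM in control and 60.0 in DKO (log2 change 0.91, SE 0.15, edgeR adjusted p = 0.298), and Bhlhe40, a HIF-induced repressor, 133 and 210 (0.63, SE 0.15).

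**Figure D3:**
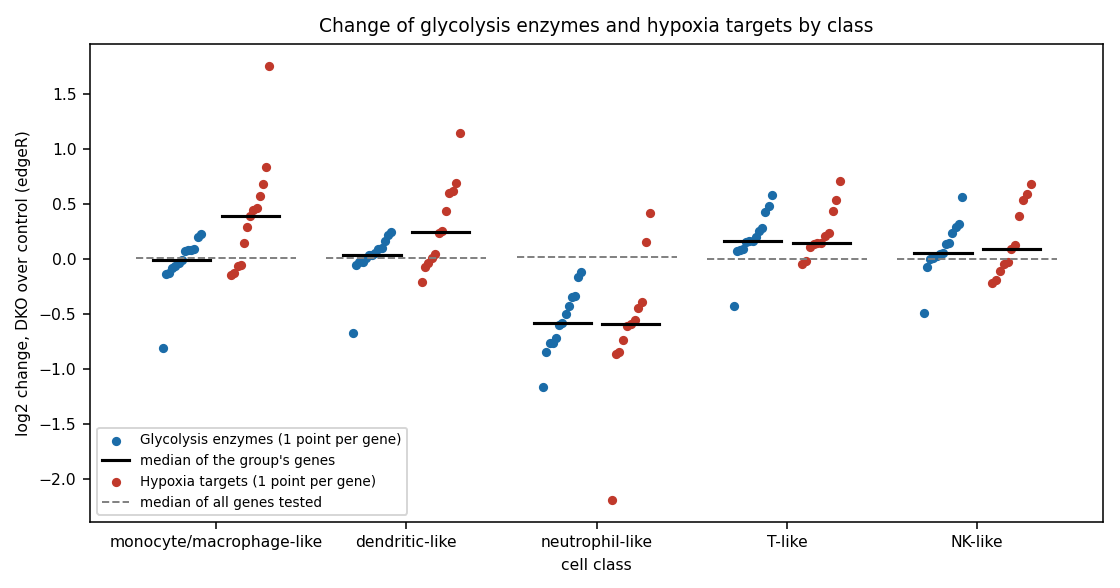
Log2 change, DKO against control, of each glycolysis enzyme (blue) and hypoxia target (red) in 5 classes, with a black line at the group median and a dashed line at the median of all genes tested in the class. The targets' median is 0.39 in monocyte/macrophage-like cells, and the medians are -0.58 and -0.59 in neutrophil-like cells.

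Dendritic-like, T-like and NK-like cells had 0 members called by edgeR among 32, 31 and 31 tested, beside 0%, 0.0277% and 0.0646% of all genes. Unadjusted p-values below 0.05 were found for 6, 9 and 5 members, each higher in DKO, against 6.88%, 13% and 8.78% of all genes in either direction. The targets' median log2 change was 0.24, 0.15 and 0.09 and the enzymes' 0.03, 0.17 and 0.06. In T-like cells 12 of 13 enzymes had a positive change, beside 50.2% of all genes, and 7 of 13 were higher in both DKO libraries, as were 32.8% of all genes. The difference from monocyte/macrophage-like cells was tested directly and called for 0 members in dendritic-like (0.0398% of all genes) and 0 in T-like cells (0.229%), with an unadjusted p below 0.05 for 2 and 11 members, beside 5.12% and 7.62% of all genes.

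Vegfa in dendritic-like cells was at 36.9, 43.2, 116 and 68.6 CPM in control 1, control 2, DKO 1 and DKO 2 (log2 change 1.14, SE 0.30, edgeR adjusted p = 0.704), and Ndrg1, a stress-induced protein, at 84.9, 90.2, 161 and 119 (0.62). In T-like cells Bnip3 was at 16.7, 24.3, 38.0 and 31.4 CPM (0.71, SE 0.19, adjusted p = 0.255), Hk2 at 25.5, 37.4, 51.1 and 47.2 (0.58, SE 0.18) and Slc16a3 at 46.4, 49.5, 93.6 and 63.6 (0.65, SE 0.19). Egln3 in NK-like cells was at 2.19, 3.76, 10.8 and 9.19 CPM (1.62, SE 0.45, adjusted p = 0.247), and Ero1l at 49.2, 44.7, 87.2 and 70.3 (0.68, SE 0.18). None of these groups overlapped, and none passed the threshold with all 4 libraries. In T-like cells both DKO libraries lay above both controls for 32.8% of all genes. That share is not given here for dendritic-like and NK-like cells. Leaving out 1 library changed the count of called members: 4 in dendritic-like cells without DKO 1 (Vegfa, Ero1l, Bnip3 and a lower Eno1), 2 without DKO 2 (Ndrg1 and Vegfa), 7 in T-like cells without DKO 2 and 3 in NK-like cells without control 1.

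Cluster 5, the unnamed cells led by Il13, Il4 and Il5 and with Cd4 among its leading genes, held 3 members that passed the test, Egln3 and the targets Ndrg1 and Bnip3. Egln3 stood at 26.6, 22.5, 50.3 and 63.9 CPM, a log2 change of 1.16 (SE 0.19, edgeR adjusted p = 0.0223). Ndrg1 (chr15:66929318-66969640, minus strand) stood at 27.6, 24.8, 70.8 and 53.5 CPM, a change of 1.19 (0.20, adjusted p = 0.0268), and Bnip3 at 18.0, 15.4, 36.6 and 37.3, a change of 1.08 (0.20, adjusted p = 0.0436). These 3 of 31 tested members rose, beside 0.161% of all genes called higher. In cluster 10, another unnamed cluster, 0 of 31 members were called, beside 0.049% of all genes. Bnip3 lost its call without control 2 (adjusted p = 0.0615) and with the replicate block (0.0927). Of the pathway genes Ier3, an early stress gene, rose from 51.1 and 54.4 to 129 and 198 CPM (1.57, SE 0.19, adjusted p = 0.00966). Innate lymphoid markers summed to 1521 to 1579 CPM in control and 1936 to 2536 in DKO, with 4 of 6 higher, while T cell markers summed to 7071 to 7900 and 6614 to 6898. The part of these shifts was not tested.

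In neutrophil-like cells most members were lower in DKO. All 13 enzymes had a negative log2 change in DKO, with a median of -0.58, and the 11 tested targets had a median of -0.59, with 2 positive, beside a median of 0.02 and 48.5% of genes negative over all genes tested. Of 31 tested members 1 was called, beside 0.114% of all genes, and 12 had an unadjusted p below 0.05, all lower, against 4.9% of all genes. Both DKO libraries lay below both controls for 7 of 13 enzymes and 6 of 11 targets, as for 11.3% of all genes. With library totals in place of TMM both medians were -0.39 and the median of all genes was 0.21, so the members lay below all genes there too.

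Fam162a (chr16:36043761-36071594, minus strand) was the called member. It stood at 219, 301, 82.6 and 39.6 CPM in neutrophil-like cells of control 1, control 2, DKO 1 and DKO 2, from 58, 194, 27 and 7 UMIs, and fell by 2.19 on the log2 scale (SE 0.36, edgeR adjusted p = 0.0261). The call held without each library in turn, with changes from -2.98 to -1.79, but not with DESeq2 (adjusted p = 0.156) or the stricter cell filter (0.0628). In monocyte/macrophage-like cells the same gene was at 99.4, 127, 129 and 93.9 CPM. Pfkfb3 was at 230, 200, 116 and 96.2 CPM in neutrophil-like cells (-1.15, SE 0.29, adjusted p = 0.188) and Eno1 at 207, 390, 190 and 113 (-1.16, SE 0.38). Gapdh stood at 1304, 1639, 1089 and 939 CPM (-0.72), Aldoa at 855, 1095, 621 and 690 (-0.76) and Tpi1 at 479, 581, 294 and 385 (-0.84). Within these 5 genes the groups did not overlap. Slc16a3, at 773, 856, 1211 and 837 CPM (0.17), and Vegfa, at 230, 115, 303 and 79.2 (0.16), did not share the direction. Of 21 tested pathway genes 0 were called and 3 had an unadjusted p below 0.05, all lower: Plin2 averaged 963 CPM in control and 436 in DKO (-1.30, adjusted p = 0.188) and Hilpda was at 1017, 1440, 826 and 373 (-1.19). Hilpda shows how far single pools differ, since DKO 1 lay closer to control 1 than to DKO 2.

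The change of 4 members differed between neutrophil-like and monocyte/macrophage-like cells when the difference itself was tested, all in the direction of a lower change in neutrophil-like cells, beside 0.182% of all 12074 genes. The difference in log2 change was -2.22 (SE 0.35) for Fam162a, -1.60 (0.33) for Pfkfb3, -1.30 (0.28) for Bnip3 and -1.22 (0.29) for Egln3. With library totals in place of TMM, Bnip3 (adjusted p = 0.155) and Egln3 (0.241) lost their calls, and without control 2 Fam162a alone passed. Among the 31 members that passed the filter on low counts within neutrophil-like cells, the difference was negative for 30, with Slc16a3 at 0.06 the exception, beside 52.2% of the 3507 genes that passed it. Its median was -0.61 for the 13 enzymes and -0.79 for the 11 targets, against -0.03 for these genes. Adm and P4ha2 did not pass. Neutrophil-like cells numbered 158, 347, 197 and 83 in the 4 libraries. The 10 neutrophil markers summed to 60876 to 107037 CPM in the control pools and 49715 to 77174 in the DKO pools, which overlapped. T cell markers summed to 32.6 to 41.5 CPM in control and 58.1 to 102 in DKO, with 12 of 12 detected, and tumour or fibroblast markers to 10.9 to 11.3 and 24.5 to 39.6, with 8 of 8 detected. Innate lymphoid markers were likewise higher, at 3.77 to 7.77 and 16.97 to 36.7 CPM with 6 of 6 detected, and dendritic markers at 1.55 to 3.77 and 12.2 to 16.97 CPM with Zbtb46, Clec9a, Cd209a, Ccl22 and Cadm1 at 0. Lower was the NK marker sum, with Tyrobp in it, at 4101 to 4469 and 3604 to 3979 CPM with Ncr1, Eomes and Klri2 at 0. It is not read as NK cell RNA. Plasmacytoid dendritic markers were also lower, at 141 to 158 and 84.9 to 128 CPM with Siglech, Ly6d and Klk1 at 0. The part of these markers in the lower levels was not tested.

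Monocyte/macrophage-like cells were divided into 13 states by a further clustering without the members among the variable genes. The smallest, S12 with 41 cells, was led by Bcl11b, Icos and Satb1. Its leading genes included the T cell markers Cd3g, Cd3d and Cd4, which go against its class name. It was too small to test and is counted among the 13. The differences between states are a description, since all of them share the same 4 libraries and the same cells were clustered. One small state carried the members together. State S10, with 723 cells, was led by the platelet chemokine gene Ppbp, the neutrophil chemokine gene Cxcl3 and the metallothionein gene Mt2. Its 13 targets summed to 4131, 3729, 5142 and 5293 CPM in control 1, control 2, DKO 1 and DKO 2, against 3001 ± 658 (SD, n = 4) in S6 and 2913 ± 370 in S3, the next states. The lowest was S7, the state led by Ace, Hp and Ifitm6, at 884 ± 226. The enzymes summed to 12125 ± 458 CPM in S10, 11141 ± 1521 in S6, 9851 ± 1177 in S3 and 4731 ± 571 in S7.

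**Figure D4:**
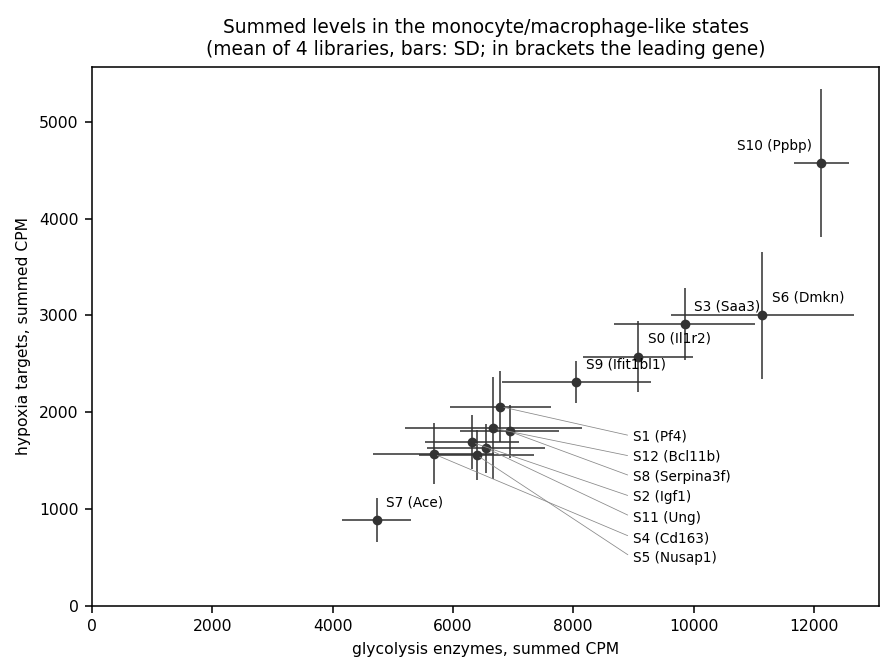
Summed CPM of the 13 glycolysis enzymes (horizontal) against the 13 hypoxia targets (vertical) in the 13 monocyte/macrophage-like states, as the mean of 4 libraries with bars of 1 SD. S10 is highest on both axes and S7 lowest.

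By their sums, targets and enzymes ranked the states alike. Pearson's r was 0.965 and Spearman's rho 0.956 over the 13 states, which share libraries. Mif made up a large part of the target sum, at 897 of 2047 CPM in the whole class. Single targets need not follow the sum. Adm, at low counts outside S10, had a Spearman's rho of 0.03 (Pfkp) to 0.31 (Hk1) with the 13 enzymes. All 13 targets were higher in each S10 library than in every library of the other monocyte/macrophage-like cells, at a median ratio of 2.84, and 11 of 13 enzymes were, at a median ratio of 1.61, beside 6.65% of 12967 genes. Adm averaged 27.7 CPM in S10 and 1.28 in the rest, 21.7 times as much, with 16.3, 11.4, 17.3 and 65.9 in the 4 libraries. Egln3 averaged 186 and 25.0 CPM, Ndrg1 379 and 65.1, Ero1l 592 and 132, and Bnip3 528 and 132. Of the enzymes Pgk1 had the largest ratio, 1418 against 676 CPM, and Gapdh averaged 2844 against a ratio of 1.57. S10 held 4.96% of the class's cells and 3.61% of its UMIs, but 45.6% of the Adm, 20.2% of the Egln3 and 16.4% of the Ndrg1 UMIs. For Gapdh its part was 5.52% and for Pdk1 4.52%.

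The states next in order differed from S10 in which members led them. S6 (led by Dmkn, Vcan and Slpi) and S3 (led by Saa3, Gm15056 and Ly6i) had the highest Hif1a, at 780 and 785 CPM against 523 in S10, while Adm was at 0.809 and 0.537. Slc16a3 reached 559 CPM in S6, above 367 in S10, and Pfkp 397 against 228. Vegfa, at 491 CPM in S10, 429 in S6 and 355 in S3, was spread over the 3 states. In S7 8 of 13 enzymes and 6 of 13 targets were below the rest in every library, beside 32.6% of genes, with Bnip3 at a ratio of 0.32, while Pfkp was above it at 1.96.

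Within states 8 tests of members passed the threshold, all higher in DKO and 4 of them of Egln3. In S2, led by Igf1, Tlr12 and Ear2, Ddit4 rose from 9.53 and 9.21 to 36.5 and 25.7 CPM (log2 change 1.69, SE 0.23, edgeR adjusted p = 0.0051), beside 0.396% of all genes called higher. Egln3 rose in S2 by 1.31 (SE 0.23), Ndrg1 by 1.23 (0.21) and Vegfa (chr17:46016993-46032369, minus strand) by 0.68 (0.13). In S0, led by Il1r2, Ifitm1 and Ocstamp, Egln3 rose from 21.8 and 17.7 to 44.7 and 54.9 CPM (1.29, SE 0.16, adjusted p = 0.0098), beside 0.126% of genes. In S7 it rose from 5.66 and 5.68 to 46.4 and 20.4 CPM (2.51, SE 0.43, adjusted p = 0.0182), beside 0.261%. In S10 Egln3 rose from 150 and 99.3 to 248 and 249 CPM (1.00, SE 0.19, adjusted p = 0.0219) and Ndrg1 from 308 and 239 to 519 and 451 (0.81, SE 0.18, adjusted p = 0.0375), beside 0.711%. Of pathway genes Aldoc rose in S2, Pgm2 in S0 and S10 and Bhlhe40 in S10, the last from 197 and 164 to 353 and 481 CPM (1.19, edgeR adjusted p = 0.00448). The symbol Pgm2 of the count tables stands for the gene at chr4:99929414-99987294, which GENCODE names Pgm1.

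Among the other 7 tested states 0 members were called by edgeR, beside 0% of all genes in S1, S3 and S4, 0.381% in S5, 0.116% in S6, 0.063% in S8 and 0.35% in S9. No enzyme was called in any of the 11 tested states. The enzymes' median log2 change ran from -0.11 in S9 to 0.19 in S7 and S8, and Eno1 was negative in all 11. The targets' median was positive in 10 states, from 0.14 in S5 to 0.59 in S0, and was -0.04 in S9, the state of interferon genes led by Ifit1bl1, Rsad2 and Ifit3. Whether the change differs between states was not tested. Egln3 had a change of 1.47 in S1 and 1.22 in S3, neither called, and of -0.04 in S9. S10 made up 3.20%, 6.54%, 4.18% and 6.17% of monocyte/macrophage-like cells in control 1, control 2, DKO 1 and DKO 2, so its share overlapped between the groups. S2 made up 11.0%, 3.94%, 18.2% and 28.6%. When every library was given the same mix of states, with S12 left out, the targets' median change in the class was 0.58 with 0 called. That value came from limma on log2(CPM + 1) without TMM, so it differs from the class value by edgeR in more than the mix. By edgeR without S10 and S12 the median was 0.37 with 0 called.

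**Figure D5:**
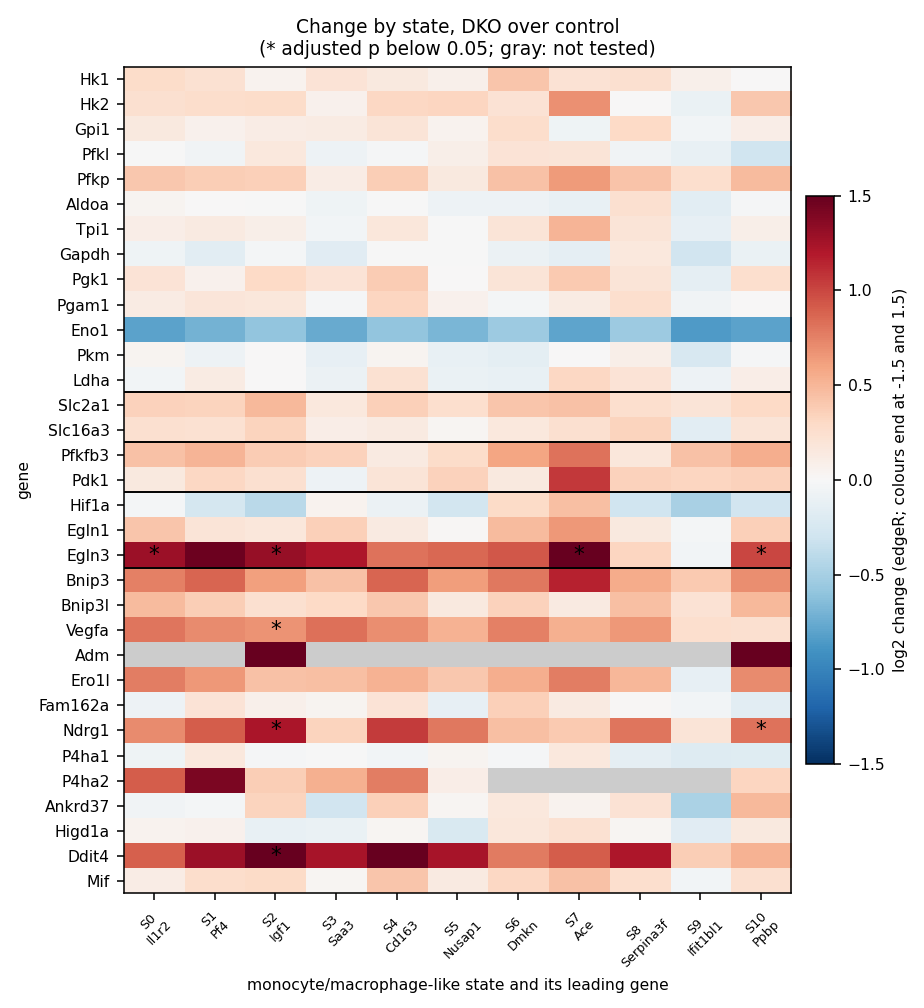
Log2 change, DKO against control, of each of the 33 genes (rows) in states S0 to S10 (columns), with colours ending at ±1.5, a star at an edgeR adjusted p below 0.05 and gray where a gene was not tested. Stars lie on Egln3 in S0, S2, S7 and S10, on Ndrg1 in S2 and S10, and on Ddit4 and Vegfa in S2.

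These calls depended on single libraries. Egln3 in S0 was lost without control 2 (adjusted p = 0.205), in S2 without control 1 (0.057) or control 2 (0.114), in S7 without DKO 1 (0.203) and in S10 without control 2 (0.454). Ndrg1 was lost in S2 without control 1 (0.163) and in S10 without control 2 (0.665), and Vegfa in S2 without control 1 (0.235) or control 2 (0.294). Ddit4 in S2 kept its call in each alternative run. Macrophage markers were lower in DKO in 3 of these 4 states: 23157 to 24845 against 19288 to 19967 CPM in S2, 13859 to 14012 against 11542 to 11626 in S0 and 13738 to 15628 against 11846 to 12197 in S10, with 12 of 12 detected. T cell markers were higher in S0, at 16.8 to 17.9 against 22.8 to 27.4 CPM with 12 of 12 detected, in S7, at 13.4 to 15.1 against 27.2 to 27.6 CPM with Trdc at 0, and in S10, at 13.8 to 15.3 against 23.7 to 29.9 CPM with 12 of 12 detected. Dendritic markers, with 10 of 10 detected, summed to 14.1 to 17.7 against 18.6 to 30.1 CPM in S0, 25.5 to 37.8 against 42.5 to 61.4 in S2 and 8.68 to 13.0 against 14.02 to 20.2 in S10. The NK marker sum, with Tyrobp in it, was lower in S0, at 1991 to 2205 against 1457 to 1776 CPM, and likewise lower in S7 and S10. The part of these markers was not tested. The borders of the states were not stable between clustering runs, and the number of member tests called was 5, 14 and 15 in the 3 runs next best by modularity. In the run with 14, a state of 471 cells, of which 99.4% came from S7, had Eno1 and Vegfa called lower in DKO, a median change of the targets of -0.22 and no call of Egln3, against the direction given above for S7. S10 was not stable either. In the run with 5, a state of 311 cells, 92.0% of them from S10, had 0 members called and a targets' median of 0.13. In the runs with 14 and 15, the state led by Ppbp, Cxcl3 and Mt2 was larger, with 1802 and 1235 cells. There 10 and 9 members were called, all higher in DKO, beside 132 of 9619 and 152 of 8968 genes called.

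The share of monocyte/macrophage-like cells with a UMI gave the same order for part of the members after each cell was thinned to 2000 UMIs. Both DKO libraries were above both controls for 7 of 13 targets, and the groups overlapped for Adm, Fam162a, P4ha1, Ankrd37, Higd1a and Mif. Shares of cells were computed for the hypoxia targets and oxygen-sensing genes only, so no share over all genes stands beside this count. In CPM, both DKO libraries lay above both controls for 21.3% of all genes in this class. Bnip3 was found in 16.7%, 22.04%, 29.6% and 28.0% of cells in control 1, control 2, DKO 1 and DKO 2, a difference of 9.42 percentage points between the group means (exact permutation p = 0.3333). Unthinned, the means were 50.8% and 66.5%. Egln3 was found in 4.75% of thinned control and 8.35% of thinned DKO cells, and Vegfa in 24.4% and 32.4%. No class lacks these genes for certain. Among the 5 classes compared, the lowest thinned shares were 1.498% and 1.25% for Vegfa in T-like cells, 2.31% and 5.05% for Bnip3 and 0.72% and 1.66% for Egln3 in NK-like cells. Median depths before thinning were 9902.5 UMIs in monocyte/macrophage-like, 5330 in T-like and 4806.5 in NK-like cells. In neutrophil-like cells Fam162a was found in 28.8% of thinned control and 8.77% of thinned DKO cells (difference -20.1 points, exact permutation p = 0.3333) and in 20.2% and 8.09% unthinned. Thinning left only 43 to 121 cells per library there.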

How the data were processed

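The files are deposited count matrices of whole UMIs per gene and barcode, 1 per library, written by matrix software 3.1.0 per the file headers. The submitters' processing notes name the builds mm10 and GRCh38, Cell Ranger, Seurat 3.1.0 and R 3.6.0, with no role for each. Further aligner settings are not given in the sources used here. The 33 members and the other gene lists were chosen with earlier results of these data known.

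Barcodes were kept from 200 genes and 500 UMIs upward if mitochondrial genes gave no more than 10% of their UMIs, and 930, 663, 636 and 570 failed in control 1, control 2, DKO 1 and DKO 2, all of them on the mitochondrial share. Scrublet, at 0.8% expected doublets per 1000 barcodes, marked 678, 601, 415 and 236 barcodes, of which 638, 588, 387 and 212 had passed those filters and were removed. Cells were clustered with scanpy 1.11.5 (Python 3.11.15, scipy 1.17.1) on 2000 variable genes, 30 principal components and 20 neighbours by Leiden (leidenalg 0.10.2, igraph 0.11.9) at resolution 1, with 90 genes (the members and other pathway genes) left out. Of 20 Leiden runs the 1 with the best modularity was used. That rule was set for reproducibility after earlier clusterings, and the members' results on the first of them, had been seen. A cluster was called T-like only with Cd3e in at least 50% of cells. No correction for free RNA was made.

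Counts were summed per library and class, state or cluster with at least 50 cells in each library (20 for comparisons of classes), filtered with filterByExpr, scaled by TMM and tested with the quasi-likelihood test of edgeR 4.0.16 (R 4.3.3, limma 3.58.1), with Benjamini-Hochberg adjustment over all genes tested. Called means an adjusted p below 0.05. The replicate number was a covariate only in an alternative. Shares of cells with a UMI were compared after thinning to 2000 UMIs by an exact permutation test. The statistics were first tested on simulated data. Alternatives were DESeq2 1.42.0, library totals, no filter on low counts, a stricter cell filter (at least 1000 UMIs, at most 5% mitochondrial), leaving out each library and other clusterings. The equal mix of states was fitted with limma on log2(CPM + 1) of weighted CPM, without TMM.

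All 33 members could be named. Other pathway genes could be named where called, of which the text gives a part, and otherwise at most 3 per list and comparison, those with the largest change among genes with at least 20 CPM in the higher group. A state is described by the 3 other genes with the highest fold and at least 50 CPM. Gene coordinates are from GENCODE on GRCm38 and promoters from RefSeq on GRCm38.p6. Figures were drawn with matplotlib 3.10.9.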

Additional observations from a re-analysis of the deposited data

Results flagged for a closer look

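The DKO change of 4 members differed between neutrophil-like and monocyte/macrophage-like cells by the test of the difference itself, a class-by-group term fitted with edgeR over both classes. The difference in log2 change, neutrophil-like minus monocyte/macrophage-like, was -2.22 for Fam162a (SE 0.35, adjusted p = 4.07e-07) and -1.60 for Pfkfb3 (SE 0.33, adjusted p = 0.000968). It was -1.30 for Bnip3 (SE 0.28, adjusted p = 0.00309) and -1.22 for Egln3 (SE 0.29, adjusted p = 0.0140). With library totals in place of TMM, Pfkfb3 (-1.40, adjusted p = 0.0367) and Fam162a (-2.02) passed the threshold, and Bnip3 (adjusted p = 0.155) and Egln3 (0.241) did not. Without control 2 Fam162a alone passed, and without DKO 2 Fam162a and Tpi1 (-1.17) did. The same 4 genes passed without control 1 and without DKO 1. Each group had 2 libraries, too few for a search for single samples far from the rest.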

How the results depend on the processing

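No member past the threshold changed direction in the same set of cells under the alternatives run. Of 472 comparisons of a single member under other settings, 441 stayed on the same side of the threshold, 16 gained a call and 15 lost one, and 252 of 296 stayed when 1 library was left out. With no filter on low counts, members called were 4 in dendritic-like, 6 in T-like, 2 in NK-like and 3 in neutrophil-like cells. With the stricter cell filter they were 3 in T-like and 0 in neutrophil-like cells, and with DESeq2 0 in neutrophil-like cells. Without TMM the difference between neutrophil-like and monocyte/macrophage-like changes was called for 2 members, and 13 member tests were called in the states. In the next 3 clustering runs 5, 14 and 15 were called. The median change of the targets in monocyte/macrophage-like cells was 0.58 with an equal mix of states, fitted with limma and no TMM. By edgeR without TMM the neutrophil-like medians were -0.39 for enzymes and -0.39 for targets. The cause was not tested.

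Leaving out each library in turn gave 0 to 0 called members over all sorted cells, 0 to 1 in monocyte/macrophage-like, 0 to 4 in dendritic-like, 0 to 7 in T-like, 0 to 3 in NK-like, 1 to 3 in neutrophil-like cells and 3 to 7 in the unnamed clusters. The states had 14 to 38, against 8 with all 4 libraries. The count was 21 when control 1 was left out, 14 for control 2, 38 for DKO 1 and 33 for DKO 2. Where 1 library was left in a group, it is assumed to vary like the other group. Neutrophil-like cells differed from monocyte/macrophage-like cells in 18 to 19 members, from dendritic-like in 19 to 25, from T-like in 18 to 25 and from NK-like in 27 to 29. The difference of the DKO change was called for 1 to 4 members in neutrophil-like, 0 to 2 in dendritic-like and 0 to 1 in T-like cells. Median changes ran from -0.19 to 0.21 for enzymes and 0.18 to 0.55 for targets in monocyte/macrophage-like cells, and from -0.77 to -0.37 and -0.83 to -0.25 in neutrophil-like cells.

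The labels give both groups the numbers 1 and 2 but do not say that a number pairs libraries, and deviations of same-numbered libraries correlated at -0.250 to -0.115. With the replicate block, members called were 0 over all cells, 0 in monocyte/macrophage-like, 0 in dendritic-like, 0 in T-like, 0 in NK-like, 1 in neutrophil-like cells, 3 in the unnamed clusters and 11 in the states. A crossed pairing, control 1 with DKO 2 and control 2 with DKO 1, called 1, 1, 1, 9, 5 and 4 members in the first 6 of these. The same fits called 515, 147, 33, 429, 446 and 92 genes in all, of 14412, 12967, 9959, 10815, 9282 and 3507 tested. For the other alternatives the counts of members are given without the share of all genes called. The settings for states and unnamed clusters, the removal of S10 and S12, the crossed pairing and the 3 further clustering runs were chosen after seeing the data.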
